A study of Mus musculus with 4 samples.

Results

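DNA transposons are mobile elements that move as DNA: a transposase binds the inverted repeats at the ends of the element, cuts it out and inserts it elsewhere. Most families also left short copies that keep the ends without the transposase gene. In the mouse genome these families are regarded as fossils with no known active copy, unlike LINE, SINE and LTR elements, which spread through an RNA copy. Copies lie in introns, untranslated regions and noncoding transcripts in either orientation, so a host transcript can carry the element's sequence on the same strand (sense) or on the opposite strand (antisense).

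The elements described here are all repeat features of the count table whose name places them in the DNA class. They were 141 of the 766 repeat elements listed, with 125 of 699 sense rows and 124 of 699 antisense rows. Of them, 108 were listed on both strands, 17 as sense only and 16 as antisense only. The table listed no repeat row with fewer than 5 reads over the libraries, so an unlisted strand says little about low levels. Under the older repeat names used in the table, the elements fell into 16 family labels. MER1_type and Charlie elements, AcHobo, hAT and Tip100 belong to the hAT superfamily, and MER2_type, Tigger, Tc2, Mariner and TcMar to the Tc1/mariner superfamily. PiggyBac and MuDR are superfamilies of their own. Each element pools its copies across the genome, so the counts carry no position of a single copy, and consensus sequences were not used here.

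The RNA came from whole testes of adult C57Bl/6J mice at postnatal day 60, either Nef-sp-/- or Nef-sp+/-, with 2 libraries for each genotype. Nef-sp (also called Rexo5 and 2610020H08Rik) encodes a nuclear 3′ to 5′ exoribonuclease of the testis. The Nef-sp-/- mice carry on both copies a 23 bp deletion made with Cas9 nickase and paired guides that shifts the reading frame; the Nef-sp+/- controls carry the same deletion on a single copy, so no library came from wild-type testis. The line descends from founder females bred to C57Bl/6J Rj males, the loss affects every cell, and the labels do not state whether replicates are separate animals, so p-values measure only the spread between these libraries.

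The libraries held between 20659865 and 34442517 counted reads, of which the DNA class took between 20392 and 34080 sense and between 15999 and 26010 antisense reads. Nef-sp itself had 1843 and 1693 normalized counts in the Nef-sp+/- libraries against 407 and 497 in the Nef-sp-/- libraries, a log2 fold change of −1.97 (SE 0.0921, edgeR adjusted p = 4.12e-06). Spermatid markers such as Prm1 and Tnp1 summed to between 17203 and 20683 CPM (counts scaled to the exon reads of the library) with all 5 listed, and spermatocyte markers to between 3034 and 3391 CPM with all 4 listed. The liver markers Alb and Apoa1, the heart markers Myh6 and Nppa and the Sertoli marker Amh were not listed. Epididymal markers summed to between 2.26 and 3.54 CPM and macrophage markers to between 4.49 and 5.07 CPM. Spermatocyte markers were 3391 and 3198 CPM in Nef-sp+/- against 3117 and 3034 CPM in Nef-sp-/-, and Leydig cell markers 767 and 753 against 724 and 615 CPM. Cyp17a1 led the Leydig sum, at 583 and 545 against 492 and 425 CPM. Star, Hsd3b1 and Insl3 had positive log2 fold changes (0.080, 0.15 and 0.18). Hspa2 led the spermatocyte sum, at 2510 and 2378 against 2369 and 2201 CPM. Piwil1 was also lower in both Nef-sp-/- libraries, while Sycp1 and Sycp3 overlapped. The edgeR adjusted p of each of these markers was at least 0.954. Peritubular markers summed to 69.3 and 65.4 against 57.3 and 63.2 CPM. Acta2 led this sum, at 48.5 and 43.6 against 38.4 and 42.1 CPM, while Myh11 overlapped. Sertoli sums (902 and 875 against 856 and 900 CPM) and spermatogonia sums (26.9 and 25.4 against 21.5 and 28.7 CPM) overlapped. The part of these cells in the repeat values was not tested, and in whole tissue fewer cells of a type and less RNA per cell cannot be told apart.

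DNA transposons made up a small share of the repeat reads. As a share of all repeat sense reads, they took 0.689% and 0.682% in the Nef-sp+/- libraries against 0.681% and 0.692% in the Nef-sp-/- libraries, so that the genotypes overlapped (0.686% ± 0.00500 against 0.687% ± 0.00747, SD, n = 2 each). As a share of repeat antisense reads, they took 3.82% and 4.02% in Nef-sp+/- against 3.74% and 3.55% in Nef-sp-/- (3.92% ± 0.143 against 3.64% ± 0.130, SD, n = 2 each). These antisense shares did not overlap between genotypes. With rRNA and other structural RNA repeats left out of the total, the antisense shares were 4.07% and 4.42% in Nef-sp+/- against 4.32% and 3.92% in Nef-sp-/- and overlapped. On the same scale the sense shares were 3.48% and 3.62% against 3.50% and 3.33%. With 2 libraries for each genotype no exact permutation test of a share can pass the threshold of 0.05.

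A few elements carried most of these reads. On the sense strand the 3 elements with most reads held 35.3% of the class and the top 10 held 56.0%, and on the antisense strand the top 3 held 29.2% and the top 10 held 55.9%. Read totals ranged from 5 to 13625 per element on the sense strand (median 141) and from 5 to 10687 on the antisense strand (median 121.5). These totals are not scaled to copy number or length and do not rank expression per copy.

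hAT elements dominated by read number. MER1_type, the label of Charlie transposons and their short derivatives, had 55 elements and 61.9% of the DNA class reads of both strands. Tip100, a hAT group that includes FordPrefect and Arthur1, had 18 elements and 10.9%. Charlie proper had 4 elements and 3.17%, AcHobo 7 elements and 1.38%, and hAT without a further label 5 elements and 1.13%. In the Tc1/mariner superfamily, MER2_type, which holds Tigger elements and their short derivatives, had 21 elements and 12% of the reads, Tc2 with the Kanga elements 8 elements and 4.57%, and Tigger 4 elements and 2.29%. Mariner with MARNA had 3 elements and 0.674%, and TcMar 4 elements and 0.458%. MuDR, which consists of Ricksha elements, had 2 elements and 1.02%, and PiggyBac had Looper alone and 0.222%. The remaining labels (DNA, MER1_type?, hAT? and TcMar?) held 9 elements with few reads, led on the sense strand by MER103 (DNA), MamRep4096 (hAT?) and MamRep137 (TcMar?), with no sense reads listed for MER1_type?.

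Summed over each family, normalized sense counts of 5 of the 16 labels did not overlap between genotypes. Both Nef-sp-/- libraries were lower for Tip100, PiggyBac and DNA and higher for Charlie and TcMar. The label MER1_type? had no sense reads to compare. On the antisense strand 3 did not overlap, with Tip100 and DNA lower and MER1_type? higher. Among all single repeat sense features tested, both Nef-sp-/- libraries were lower for 15.6% and higher for 14.0%. Among antisense features these shares were 12.8% and 11.4%, so these family counts are not read as a result about the families. MER1_type, MER2_type and Tc2 overlapped on both strands. MER1_type sense reads summed to 14258 and 14936 normalized counts in Nef-sp+/- against 14813 and 14040 in Nef-sp-/-. MER1_type antisense reads stood at 12084 and 12355 against 12326 and 12009. MER2_type sense reads summed to 1793 and 1704 against 1710 and 1813, and its antisense reads to 3193 and 3604 against 3562 and 3297. Tip100 stood lower in both Nef-sp-/- libraries on each strand: its sense sum was 4151 and 4534 against 4105 and 3875, and its antisense sum was 549 and 526 against 495 and 486. FordPrefect alone held 13625 of the 16838 Tip100 sense reads, so the sense sum largely repeats that element. Charlie sense reads, which leave out the antisense-only Charlie13b, summed to 37.2 and 35.1 against 60.8 and 50.7. TcMar sense reads summed to 93.5 and 96.6 against 101 and 104. Tc2 sense reads overlapped, at 1858 and 1944 against 1873 and 1636. No test was made on the sums, since each is led by a few elements.

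**Figure D1:**
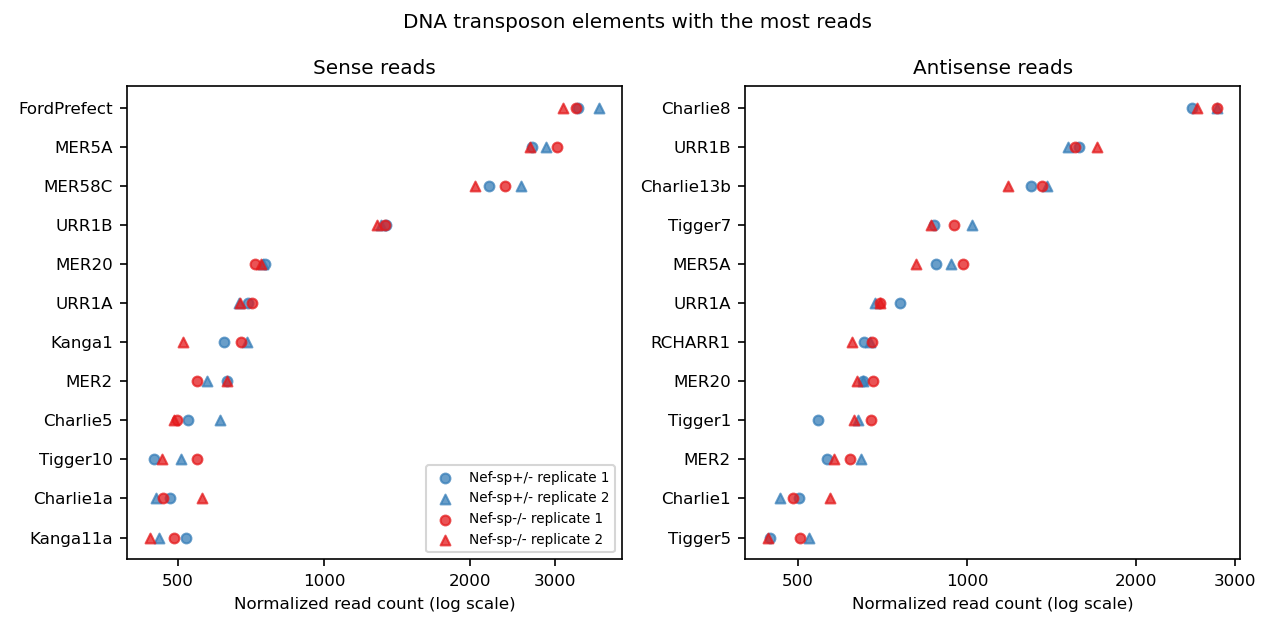
Normalized read counts (log axis) of the 12 DNA transposon elements with the most reads on the sense strand (left) and the antisense strand (right), with 1 point for each library, coloured by genotype and shaped by replicate. Points of both genotypes lie close together for each element: FordPrefect sense counts run from 3107 to 3700, and Charlie8 antisense counts from 2516 to 2788.

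The elements with the most sense reads differed little between genotypes. FordPrefect, a Tip100 element, had 3343 and 3700 normalized sense counts in Nef-sp+/- against 3318 and 3107 in Nef-sp-/-, both lower, with a log2 fold change of −0.13 (95% interval −0.32 to 0.05) that was −0.060 without Nef-sp+/- replicate 2 and −0.20 without Nef-sp+/- replicate 1. MER5A, a short nonautonomous relative of Charlie elements, had 2687 and 2877 against 3021 and 2655, which overlap, and a log2 fold change of 0.03 (−0.16 to 0.22). MER58C, of the same family, had 2193 and 2548 against 2368 and 2052, also overlapping, and a log2 fold change of −0.10 (−0.31 to 0.11). URR1B had 1343 and 1309 against 1338 and 1284, and MER20 had 757 and 748 against 720 and 742. Their log2 fold changes were −0.02 (−0.20 to 0.17) and −0.04 (−0.24 to 0.16). The edgeR adjusted p of each of these 5 elements was 0.998, and their intervals left out a change of 1.5-fold in either direction.

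On the antisense strand the leading element was Charlie8, with 2516 and 2788 normalized counts in Nef-sp+/- against 2781 and 2560 in Nef-sp-/-, and a log2 fold change of 0.01 (−0.22 to 0.24). URR1B had 1584 and 1515 against 1557 and 1703 (log2 fold change 0.07, −0.14 to 0.29). Charlie13b, which was listed as antisense only, had 1298 and 1390 against 1359 and 1181 (−0.08, −0.31 to 0.14). For each of these the genotypes overlapped. Tigger7, a Tc1/mariner element, had 872 and 1018 against 949 and 864 (−0.06, −0.30 to 0.17). MER5A antisense reads were 881 and 934 against 983 and 812 (−0.02, −0.26 to 0.22). The edgeR adjusted p of each was 0.9997.

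Across the class, no element passed the test on either strand. The filter on low counts kept 88 of the 125 sense elements and 84 of the 124 antisense elements, and the 37 and 40 left out had at most 43 reads over the 4 libraries. By the quasi-likelihood test of edgeR, with p-values adjusted by Benjamini-Hochberg over every repeat sense feature tested, 0 of 88 were called at an adjusted p of 0.05, where 0.692% of the 578 sense features tested were called, and the smallest adjusted p was 0.403. At an unadjusted p of 0.05, 4 of 88 sense elements passed (4.55%), against 5.02% of all sense features. On the antisense strand 0 of 84 were called, where 0% of the 553 features tested were, with a smallest adjusted p of 0.9997. At the unadjusted threshold 1 of 84 passed (1.19%), against 2.35% of all antisense features. DESeq2 called 0 elements on each strand, and 0 passed its unadjusted threshold. Over all 578 sense features it called 3.

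The direction was mixed and depended on the scaling. On the sense strand 36 elements had a positive and 52 a negative log2 fold change, taken as Nef-sp-/- relative to Nef-sp+/-, with a median of −0.037 (quartiles −0.15 and 0.10) beside 0.0054 over all repeat sense features. On the antisense strand 40 were positive and 44 negative, with a median of −0.015 (quartiles −0.15 and 0.11) beside 0.0090 over all antisense features. With library sizes taken from gene exon reads, 46 sense elements were positive and 42 negative (median 0.0039), and 52 antisense elements positive and 32 negative (median 0.048). Median sense log2 fold changes of the LTR, LINE and SINE elements that passed the filter were 0.03, 0.01 and −0.01, and their antisense medians were 0.02, 0.03 and −0.01. Both Nef-sp-/- libraries lay above both Nef-sp+/- libraries for 14 of 88 sense elements (15.9%), against 14.0% of all sense features, and below for 17 (19.3%), against 15.6%. For antisense reads they lay above for 10 of 84 (11.9%), against 11.4%, and below for 18 (21.4%), against 12.8%.

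These libraries limited the size of change that could be missed. The 95% interval of the log2 fold change lay within a 2-fold change in either direction for 73 of 88 sense and 66 of 84 antisense elements, and within a 1.5-fold change for 47 and 38. The median SE was 0.169 on the sense and 0.223 on the antisense strand. Among the 9 sense elements with at least 2000 reads, the log2 fold change was at most 0.21 in size and the intervals lay between −0.45 and 0.23. Among the 11 antisense elements with at least 2000 reads, it was at most 0.14 in size, with intervals between −0.31 and 0.39.

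**Figure D2:**
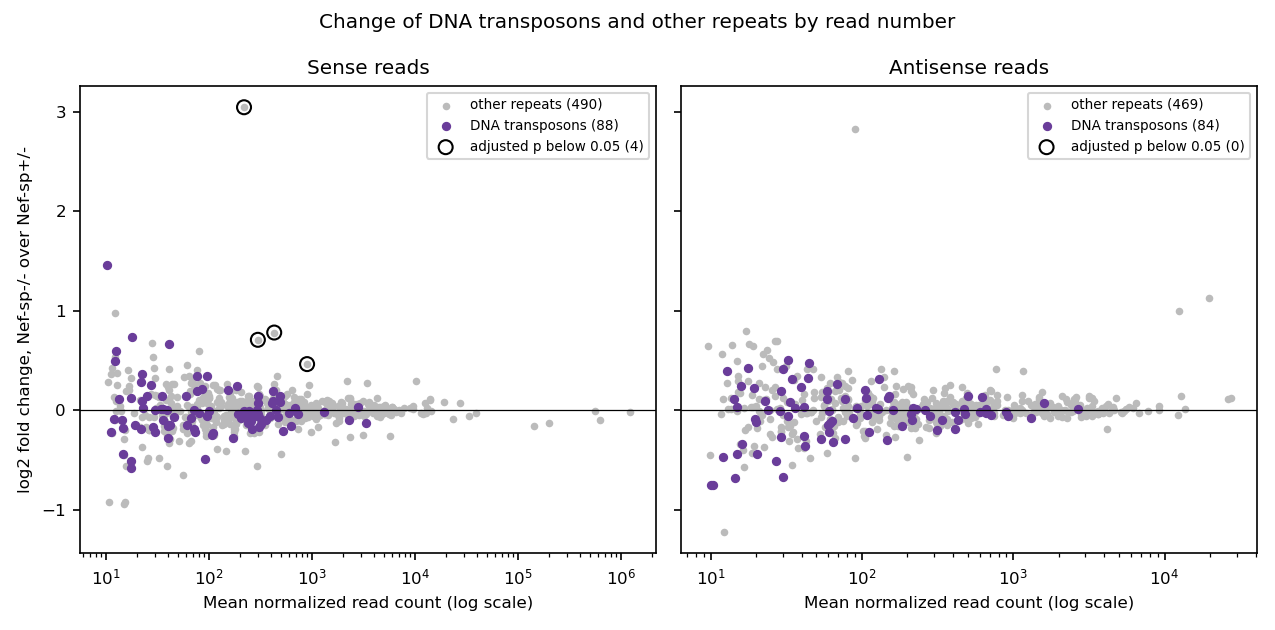
Log2 fold change (Nef-sp-/- over Nef-sp+/-) against the mean normalized read count (log axis) of the repeat features tested, for sense (left) and antisense reads (right), with DNA transposons in purple, other repeats in grey and features with an adjusted p below 0.05 circled. None of the 4 circled sense features is a DNA transposon, and the spread of the purple points narrows with read number.

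The element with the smallest p on the sense strand was Looper, the only PiggyBac element listed. It had 107 and 106 normalized sense counts in Nef-sp+/- against 74.0 and 77.2 in Nef-sp-/-, so that the genotypes were apart (107 ± 0.702 against 75.6 ± 2.27, SD, n = 2 each). This is a log2 fold change of −0.49 (SE 0.159, 95% interval −0.84 to −0.15) with an unadjusted p of 0.00837 and an edgeR adjusted p of 0.403. Of its reads, 372 were sense and 12 antisense.

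The other elements with the smallest p were higher in both Nef-sp-/- libraries. MER47B, a short Tigger derivative, had 6.76 and 4.39 against 13.1 and 16.5 normalized sense counts, a log2 fold change of 1.46 (0.34 to 2.58) and an edgeR adjusted p of 0.494, from 38 sense reads in all. Its antisense counts, below the filter, were 5.55 and 5.99 against 10.9 and 12.8. Charlie19a had 37.2 and 27.8 against 53.7 and 47.4 sense counts, a log2 fold change of 0.67 (0.16 to 1.18) and an edgeR adjusted p of 0.494. Charlie4a, named because it was the remaining element at the unadjusted threshold, had 90.2 and 79.0 against 107 and 106. Charlie18a, which had the second largest sense change, stood at 14.7 and 12.4 against 19.1 and 25.4, with a log2 fold change of 0.74 (−0.04 to 1.52) and an edgeR adjusted p of 0.998. None of these passed after adjustment.

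On the antisense strand the smallest p was that of FordPrefect. Its antisense counts were 37.8 and 36.7 in Nef-sp+/- against 25.5 and 21.3 in Nef-sp-/-, without overlap, a log2 fold change of −0.67 (−1.28 to −0.06) with an unadjusted p of 0.0331. Arthur1, another Tip100 element, had 167 and 158 against 142 and 121 (log2 fold change −0.30, −0.67 to 0.06). MER63C had 26.6 and 27.0 against 42.5 and 34.0 (0.50, −0.09 to 1.10). The largest antisense changes were those of MER104, MER45B and Tigger9b, each on few reads. MER104 had 12.2 and 14.2 against 1.21 and 13.8, so its log2 fold change of −0.75 (−2.02 to 0.52) rested on 1 library: without Nef-sp-/- replicate 1 it was 0.040. MER45B had 12.2 and 12.7 against 10.9 and 4.25 (−0.75, −1.80 to 0.30), with a single low library as well. Tigger9b had 14.4 and 21.0 against 9.71 and 12.8 (−0.68, −1.52 to 0.16). The edgeR adjusted p of each of these 6 elements was 0.9997.

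**Figure D3:**
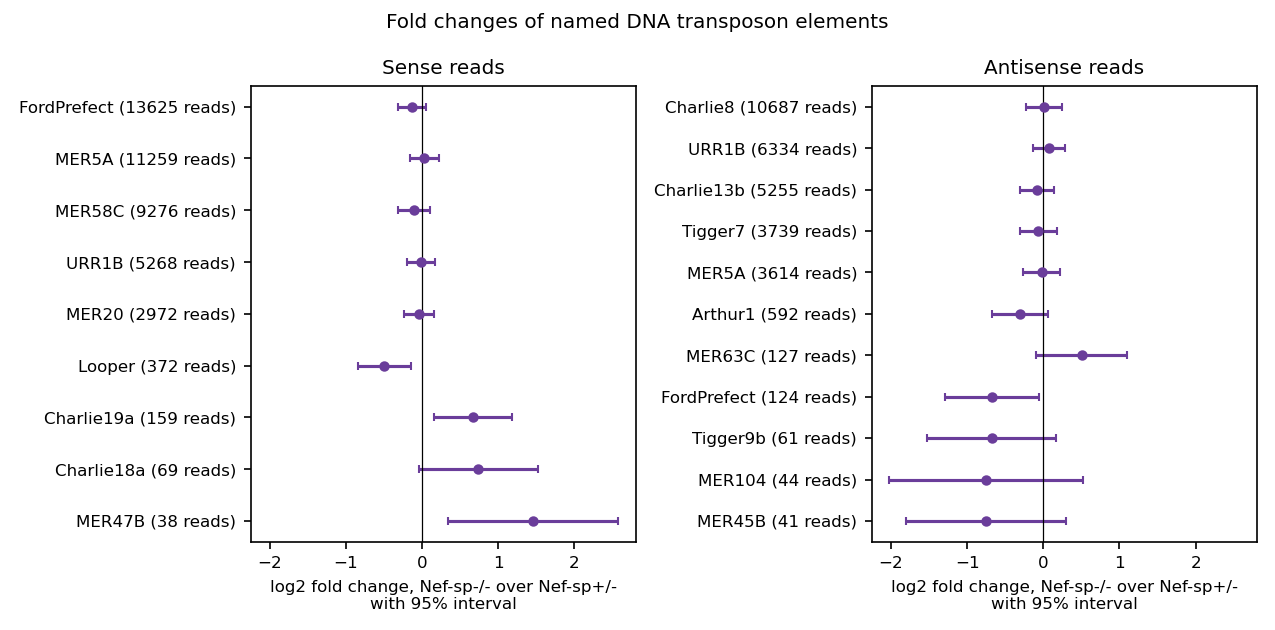
Log2 fold change (Nef-sp-/- over Nef-sp+/-) with its 95% interval for elements with the most reads, the smallest p or the largest change, by strand and ordered by reads over the 4 libraries, which stand beside each name. The intervals of the 5 elements with the most reads on each strand are narrow and include 0, whereas that of Looper sense reads runs from −0.84 to −0.15 and that of MER47B sense reads from 0.34 to 2.58.

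The strands were unequal within most elements, and in either direction. Summed over the class, sense reads were 55.7% (95% Wilson interval 55.2 to 56.2) and 56.7% (56.3 to 57.1) of DNA transposon reads in the Nef-sp+/- libraries against 56.0% (55.5 to 56.5) and 54.8% (54.3 to 55.3) in the Nef-sp-/- libraries. The intervals cover counting error only, and the means of 56.2% ± 0.716 and 55.4% ± 0.861 (SD, n = 2 each) overlapped. This near balance hid opposite biases of the elements. Shares were taken for the 73 elements listed on both strands with at least 200 reads in all. Of these, 22 had at least 75% sense reads and 18 at most 25%, and 14 had at least 90% and 10 at most 10%. Elements listed on a single strand, such as the abundant antisense-only Charlie13b, were left out of these counts. The Wilson interval lay above 50% in all 4 libraries for 31 elements and below it in all 4 for 26. The median sense share was 49.5% (quartiles 28.0% and 85.2%), while a single element's share varied between libraries with a median SD of 2.32 percentage points.

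Elements with almost only sense reads came from several superfamilies. Kanga11a, a Tc2 element, had 99.6% and 99.2% sense reads in Nef-sp+/- against 99.8% and 98.3% in Nef-sp-/-. FordPrefect had 98.9% and 99.0% against 99.3% and 99.3%, from 13625 sense and 124 antisense reads. Tigger6a had 98.7% over the 4 libraries, Kanga1 98.3% and MER58D 98.1%. MER58C, the third of the sense strand by reads, had 94.1%. At the other end, the antisense-only Charlie13b had no sense row. Among elements listed on both strands, MER94 had 1.63% sense reads, from 7 sense and 422 antisense reads, and MER117 had 1.64%, from 29 and 1736. MER63A had 2.68%, MER44B 5.07% and Charlie12 5.08%. Charlie8, the leading antisense element, had 11.6% and 13.2% sense reads in Nef-sp+/- against 12.9% and 10.1% in Nef-sp-/-, from 1470 sense and 10687 antisense reads.

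Other abundant elements lay between these ends. MER5A had 75% and 75.9% sense reads in Nef-sp+/- against 75.8% and 75.9% in Nef-sp-/-. URR1B had 45.4% over the 4 libraries, MER2 49.5% and MER20 53.1%. Tigger7 had 16.6%. Over the 108 elements listed on both strands, Spearman's rho of sense and antisense read totals was 0.441, a description across elements that share libraries and differ in copy number.

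**Figure D4:**
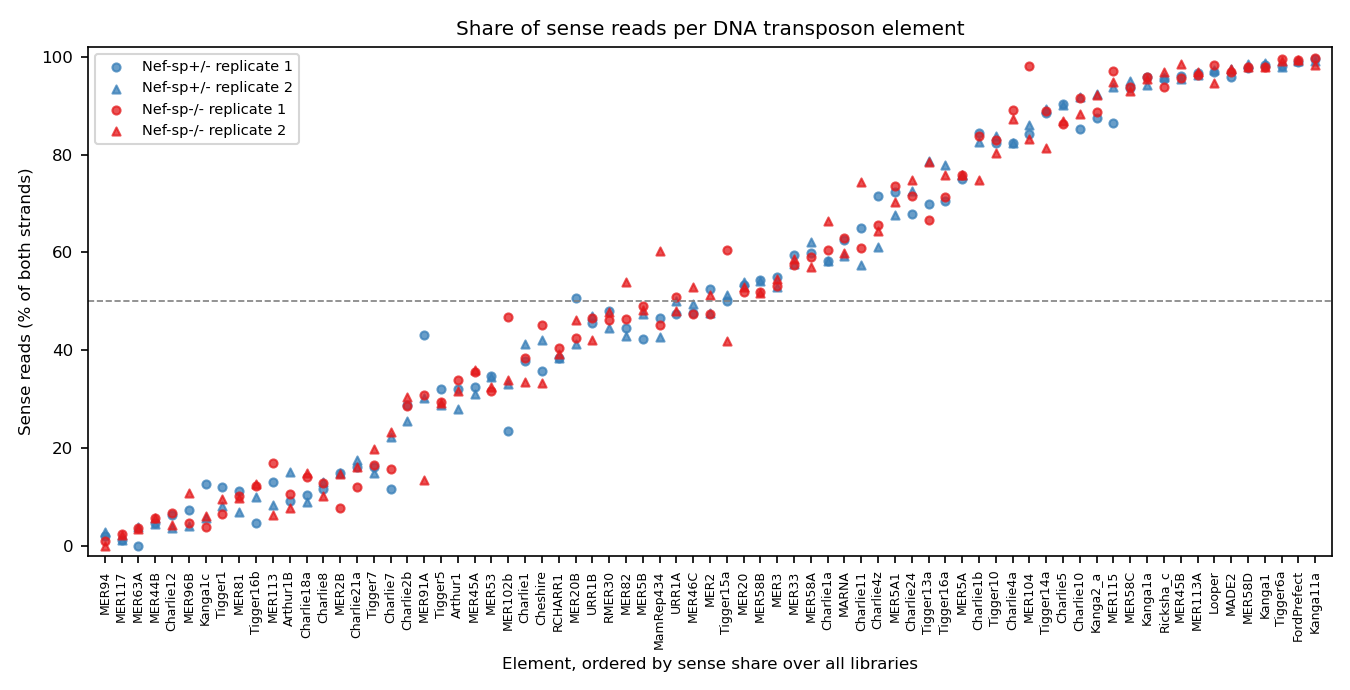
Sense share (percent of an element's sense and antisense reads) of the DNA transposon elements listed on both strands with at least 200 reads. Elements are ordered by share, with 1 point for each library coloured by genotype and a line at 50%. Shares run from near 0% to near 100%, and the 4 libraries of an element lie within 10 percentage points for 60 of the 73 elements, with the widest range, 13.4% to 43.2%, for MER91A.

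By family, the summed sense share was high for Tip100 (89.1%), Tc2 (93.2%), MuDR (95.8%) and PiggyBac (96.9%), and low for Charlie (3.25%) and AcHobo (10.2%). MER1_type summed to 54.4%, and MER2_type to 33.8%. Tigger summed to 71.9%, led by Tigger10 with 446 and 506 normalized sense counts in Nef-sp+/- against 546 and 463 in Nef-sp-/-. Mariner, led by MARNA, summed to 63.1%, hAT, led on the sense strand by MER53, to 32.9%, and TcMar, led there by MamRep434, to 49.8%. The elements with the most reads of both strands were FordPrefect in Tip100, Charlie13b in Charlie, Ricksha_c in MuDR and MER81 in AcHobo. FordPrefect held 13625 of the 16838 Tip100 sense reads, and Charlie13b nearly all of the 5304 Charlie antisense reads. Both family shares thus largely repeat single elements. Among elements with at least 200 reads, other Tip100 elements ran from 11.0% (Arthur1B) to 96.4% (MER45B). Charlie elements labelled MER1_type ran from 5.08% (Charlie12) to 89.6% (Charlie10).

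Other classes were compared over elements listed on both strands with at least 200 reads. The share of these with at least 75% or at most 25% sense reads was 54.8% for DNA transposons (40 of 73). It was 50.7% for LTR elements (144 of 284), 35.4% for LINE elements (34 of 96) and 11.1% for SINE elements (4 of 36). The classes also differed in reads per element, with medians of 1159 for DNA, 1936 for LTR, 5378.5 for LINE and 26098 for SINE elements. The part of read number in these shares was not tested.

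**Figure D5:**
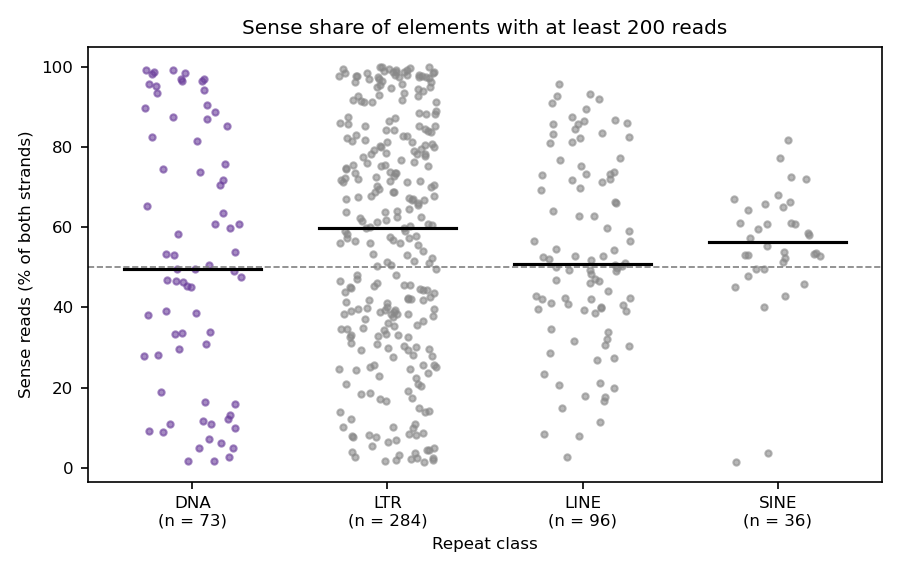
Sense share (percent of an element's sense and antisense reads, summed over the 4 libraries) of elements listed on both strands with at least 200 reads, by repeat class. Each element is 1 point, with a black line at the class median and a dashed line at 50%. DNA and LTR elements spread over nearly the whole range (medians 49.5% and 59.8%), LINE elements less so (50.8%), and most SINE elements lie near their median of 56.3%.

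Whether the genotype difference itself depended on the strand was tested with a strand by genotype term. Of the 103 DNA transposon elements fitted, 0 were called, where 0.328% of the 609 repeat elements fitted were, and 4 (3.88%) passed at an unadjusted p of 0.05, against 4.11% of all. They were Tigger6a, with a difference of sense minus antisense log2 fold change of 1.84 (0.12 to 3.55) that rested on 16 antisense reads, Charlie5 (−0.46, −0.90 to −0.02), Charlie1a (0.36, 0.01 to 0.70) and FordPrefect (0.54, 0.01 to 1.07). The edgeR adjusted p of each was 0.997. Charlie5 and Charlie1a were named because they passed this unadjusted threshold.

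Host genes descended from transposases were examined as a related list of 26 genes, of which 19 were listed and all 19 were tested. They include Cenpb, Jrk and Pogz, related to pogo and Tigger transposases, Zbed4 and Gtf2ird2, related to hAT transposases, and Thap genes, whose DNA-binding domain is shared with the P element transposase. By edgeR 0 of 19 were called, where 0.00932% of the 10728 genes tested were, and 1 (5.26%) passed at an unadjusted p of 0.05, against 4.8% of all genes. DESeq2 called 0, and 0 passed its unadjusted threshold. The log2 fold changes, 9 positive and 10 negative, ranged from −0.30 to 0.16 with a median of −0.01, beside −2.2e-04 over all genes. Gtf2ird2, which encodes a TFII-I related protein with a transposase-derived domain, had 159 and 187 normalized counts in Nef-sp+/- against 139 and 147 in Nef-sp-/-. The fitted log2 fold change was −0.30 (SE 0.130, unadjusted p = 0.0432, edgeR adjusted p = 0.954). Jrk had 356 and 380 against 398 and 396 (log2 fold change 0.11, SE 0.0843, edgeR adjusted p = 0.954), and Zbed4 had 756 and 742 against 755 and 837 (0.09, SE 0.0738, edgeR adjusted p = 0.956).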

How the data were processed

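Strand-specific total RNA libraries were prepared after removal of ribosomal RNA and sequenced for 50 cycles. Adapters were trimmed and reads aligned to mm9 by software of the authors' own, which retained perfect matches, and raw counts were deposited by feature, annotation category and strand. Tool versions, and how reads with more than a single match were assigned, are not given in the sources used here, and the latter could move reads between similar elements. The authors also deposited a mean normalized signal, log2 fold changes and p-values from DESeq2, which were not used.

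Groups came from the sample labels. Counts of the 2 libraries of a genotype were compared by chi-square over the elements only to look for a library deposited again, and each library was kept as a separate sample. Counts of each category were fitted in edgeR 4.0.16 (R 4.3.3) with TMM scaling, the filterByExpr filter (minimum count 10) and the quasi-likelihood test without covariates, adjusting p by the Benjamini-Hochberg method over the whole category. For normalized counts, each count was divided by the library's effective size over the mean effective size. SEs are the size of the log2 fold change over the root of F, and intervals are at 95%. The strand by genotype term was fitted over elements listed on both strands with the library as a block. Alternatives were DESeq2 1.42.0, other library sizes and filters, all categories in a single fit and omission of each library in turn. Further alternatives blocked on replicate number, as labelled or crossed between the genotypes.

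Named elements are, on each strand, the 3 with the smallest p, the 5 with the most reads and the 3 with the largest change. They also include the leading sense element of each family. The 5 highest and 5 lowest sense shares were taken among elements listed on both strands with at least 200 reads. MER91A, Charlie4a, Charlie5 and Charlie1a were chosen after their values were seen. Listed genes named are the 3 with the smallest p. The members, lists and rules were chosen with earlier results of these data known. Symbols were matched through RefSeq, where Scand3 is an older symbol of Zbed5.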

Additional observations from a re-analysis of the deposited data

How the results depend on the processing

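On both strands, 0 DNA transposon elements were called under each of the 13 alternatives, with a smallest adjusted p of 0.141 for sense and 0.350 for antisense reads. Counts at an unadjusted p of 0.05 ran from 0 to 7 and from 0 to 6. Over all 578 repeat sense features tested, library sizes from exon reads or from all categories called 0. DESeq2 called 3, blocking on replicate number 3 and blocking on crossed numbers 14. No listed gene and no strand by genotype term of an element was called under the alternatives run. Of 256 alternative values of the 20 named fold changes, 235 kept their direction and side of the threshold and 21, of 9 fold changes, turned direction; the cause was not tested.

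Leaving structural RNA out of the total raised the sense shares to 3.55% in Nef-sp+/- and 3.41% in Nef-sp-/- and the antisense shares to 4.25% and 4.12%, since the total is smaller. As a median over elements listed on both strands with at least 200 reads, the sense share was 50.3% and 51.8%. With library sizes from gene exon reads the median log2 fold change was 0.0039 on the sense and 0.048 on the antisense strand, and in a single fit 0.047 on the antisense strand. Leaving out single libraries gave sense medians from −0.051 to 0.0051.

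With exon library sizes, MER20 and URR1B sense were 0.0013 and 0.024, and MER5A and Tigger7 antisense 0.039 and 0.0029. In the single fit, URR1B sense was 0.016 and MER5A antisense 0.031. MER5A antisense was 0.015 with the library size of all categories, and Charlie8 antisense −0.0043 without a filter. Leaving out single libraries, sense ranges were −0.070 to 0.11 for MER5A, −0.048 to 0.0095 for URR1B and −0.21 to 0.0082 for MER58C. Antisense ranges were −0.062 to 0.073 for Charlie8, −0.16 to 0.11 for MER5A, −0.17 to 0.044 for Tigger7, −3.34 to 0.040 for MER104 and −0.19 to 0.014 for Charlie13b.

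In the fit that blocked on replicate number, the median sense log2 fold change was −0.040, Nef-sp was −1.97 and 0 elements were called. Deviations of same-numbered libraries correlated at −0.22 for repeat sense and −0.31 for repeat antisense reads, and the labels do not say that a number marks a shared litter or batch. With the numbers crossed, chosen after seeing the data, 0 elements were called on each strand. At low read numbers the intervals were wide and include changes of 2-fold.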

Other observations

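Elements with names alike up to a trailing letter were compared after their sense shares had been seen. Among the elements listed on both strands with at least 200 reads there were 12 such name groups with 28 elements. In 6 of them, members lay on opposite sides of 50% sense reads in all 4 libraries. These include near-even members such as MER5B, with 42.2% to 49.0% over the libraries, beside MER5A. In 2 groups a member had at most 25% and another at least 75%. Kanga1 had 98.3% and Kanga1c 7.17% sense reads, and MER113A had 96.5% and MER113 10.8%. Tigger16a, with 74.6%, stood against Tigger16b of the Tigger family, with 9.90%. MER45B had 96.4% and MER45A 33.3%. In 2 name groups, MER20 with MER20B and URR1A with URR1B, the members lay within 15 percentage points of each other. These shares are descriptions with no test, and how reads matching several related elements were assigned is not given in the sources used here.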
